A study of Mus musculus with 9 samples.

Results

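The GATA, HNF and pancreatic lineage factors compared here are 8 genes taken by name from the 47643 in the files: the GATA factors Gata4, Gata5 and Gata6, the GATA cofactor Zfpm1, the nuclear receptors Hnf4a and Hnf4g, the homeodomain factor Pdx1 and the cut-homeodomain factor Onecut2. Their RNA was compared between Tm+Yap- PDAC cells (3 libraries, KPYYF strain) and GFP+Yap+ PDAC cells (6 libraries, KPF strain), PDAC being pancreatic ductal adenocarcinoma. Alleles common to both strains included Trp53 frt/+, Pdx-Flp and R26 FSF-CreER/Dual, and only KPYYF mice carried Yap flox/flox. Flp, expressed from the Pdx1 promoter in the pancreas, recombines Trp53 and switches on EGFP and CreER. Tamoxifen (TAM), given in the diet once tumors were palpable, lets CreER turn EGFP off and tdTomato (Tm) on and, in KPYYF mice, delete Yap. A GFP+ cell is thus one in which the reporter had not been switched by Cre, and genotype, Yap status and reporter color changed together between the groups. By the paper's account, the sequenced cells came out of relapsed nodules in mice given TAM. It describes the Tm+Yap- nodules, seen after extended TAM, as poorly differentiated in general. Relapse thus also went with Yap loss in the KPYYF cells, and its part in the differences was not tested. The labels do not give the TAM exposure, age or sex of single mice. Cells were sorted from tumors by FACS, and each library bears a mouse number, with the KPF libraries 4504h and 4504s sharing one, so p values measure the spread between animals except for that pair.

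The factors belong to the network that sets endodermal and pancreatic identity. GATA4, GATA5 and GATA6 are zinc finger proteins that bind GATA sequences, often with a FOG cofactor such as the product of Zfpm1 (FOG1), and GATA4 and GATA6 act early in the pancreas. HNF4A is a nuclear receptor that drives genes of liver, gut and pancreatic epithelium, and GATA6 and HNF4A are known for the classical, more differentiated form of PDAC. PDX1 is required for the pancreas to form, and ONECUT factors (HNF6 and its relatives) act in pancreatic duct and endocrine development.

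Gata5 and Zfpm1 fell in Tm+Yap- cells and passed adjustment over all genes. Gata4 and Hnf4a were below every KPF library in all 3 KPYYF libraries but did not pass the adjustment. Onecut2 was low in only 2 KPYYF libraries, Gata6 differed from library to library by 111-fold within KPYYF, Pdx1 overlapped between the groups and Hnf4g was hardly counted. The study reported Hnf4a and Gata4, along with Foxa2, as significantly lower in Tm+Yap- cells. Its cutoff was a p under 0.05 and a change over 2-fold, with no adjustment stated. It drew Gata5 and Zfpm1 in a heat map. These genes were picked after looking at these libraries, so their direction here is not independent evidence.

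The RefSeq promoter windows of the members were read for short motifs of the network's own factors, 250 bases before to 50 after a start, on GRCm38.p6. Windows of 4 members were read, Hnf4a having 2 starts 40298 bases apart, and those of the other members were not. The 5 windows read are shown, with motif matches in capitals. The motifs searched on both strands were GATAA (GATA factors, in 25.4% of the 32851 windows of all genes), ATCAAT (Onecut, 7.54%), CAAAGTCC (HNF4, 1.42%), TAATTA (homeodomain, 5.29%), GGAATG (TEAD, 14.7%) and TGANTCA (AP-1, 7.81%). The windows lie at chr2:163506607-163506906 (+) and chr2:163546905-163547204 (+) for Hnf4a, chr2:180334630-180334929 (-) for Gata5, chr8:122281891-122282190 (+) for Zfpm1 and chr5:147269847-147270146 (+) for Pdx1.
Hnf4a upstream start: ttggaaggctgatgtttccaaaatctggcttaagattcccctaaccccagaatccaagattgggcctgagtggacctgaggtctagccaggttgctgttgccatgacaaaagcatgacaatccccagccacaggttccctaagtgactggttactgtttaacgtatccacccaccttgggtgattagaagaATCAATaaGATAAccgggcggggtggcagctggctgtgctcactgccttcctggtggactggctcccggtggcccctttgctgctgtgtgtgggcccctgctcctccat
Hnf4a downstream start: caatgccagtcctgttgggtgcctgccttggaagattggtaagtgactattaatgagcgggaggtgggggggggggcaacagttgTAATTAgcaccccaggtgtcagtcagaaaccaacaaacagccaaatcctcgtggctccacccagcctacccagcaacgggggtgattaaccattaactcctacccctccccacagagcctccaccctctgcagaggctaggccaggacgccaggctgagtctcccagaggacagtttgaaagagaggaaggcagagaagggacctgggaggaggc
Gata5: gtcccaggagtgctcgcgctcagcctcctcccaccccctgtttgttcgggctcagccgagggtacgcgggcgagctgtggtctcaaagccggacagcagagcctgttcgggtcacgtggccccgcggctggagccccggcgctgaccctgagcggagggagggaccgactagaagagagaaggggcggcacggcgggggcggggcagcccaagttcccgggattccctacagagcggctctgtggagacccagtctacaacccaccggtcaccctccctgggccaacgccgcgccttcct
Zfpm1: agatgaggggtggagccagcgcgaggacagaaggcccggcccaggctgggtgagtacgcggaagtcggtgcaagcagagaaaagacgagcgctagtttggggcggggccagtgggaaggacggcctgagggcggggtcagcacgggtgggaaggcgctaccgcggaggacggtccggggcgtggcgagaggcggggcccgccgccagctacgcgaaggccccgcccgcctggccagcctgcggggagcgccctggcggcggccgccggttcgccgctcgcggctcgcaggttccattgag
Pdx1: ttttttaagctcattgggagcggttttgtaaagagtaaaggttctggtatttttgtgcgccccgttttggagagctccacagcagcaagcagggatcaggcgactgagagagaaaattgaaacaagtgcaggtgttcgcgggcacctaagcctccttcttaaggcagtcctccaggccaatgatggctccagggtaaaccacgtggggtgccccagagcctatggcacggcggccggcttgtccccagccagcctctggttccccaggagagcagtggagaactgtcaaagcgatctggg

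Of the 5 windows read, only those of Hnf4a held a match, and Gata6 and Onecut2 were not searched. At the upstream start, an ATCAAT began at -59 and a GATAA at -51, so that an Onecut and a GATA motif stood next to each other without overlap. Those positions count from the RefSeq start. The GATAA, at 163506806 to 163506810, spans the start of Hnf4a in the GENCODE annotation, 163506808. At the downstream start, a TAATTA stood at -165. The windows of Gata5 and Zfpm1 were rich in G and C (69.7% and 73.7%, against a median of 52.7% over all windows), those of Hnf4a and Pdx1 less so (54.0%, 57.3% and 55.3%). A match is a word in the sequence and not a measured site, and 3′ end counts do not tell which of the Hnf4a starts a read came from.

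RNA was made into 3′ end libraries with the Lexogen QuantSeq Forward kit, which reads the end of each transcript and not its whole length. The KPF libraries had 8264587 to 9635514 reads on genes (median 9396124) and the KPYYF libraries 8116539, 8685875 and 8725132. Levels are CPM, counts per 1000000 reads on genes after TMM scaling, and 3 reads, the most that a count of 0 allows, equal 0.292 to 0.437 CPM across the libraries, for counting error only since reads carried no molecular identifiers. Yap1 was at 41.8 to 151 CPM in KPF cells and at 0.712, 2.84 and 7.12 CPM in KPYYF libraries 4449, 4891 and 4938, a log2 fold change of -4.79 (SE 0.72, edgeR quasi-likelihood test, adjusted p = 0.0159). Summed over 8 markers of ductal epithelium (Krt19, Krt8, Krt18, Krt7, Epcam, Cdh1, Muc1 and Cftr), KPF libraries held 3204 to 9036 CPM and KPYYF libraries 553 to 1562 CPM. All 8 were lower in the fit and 4 had an adjusted p under 0.05. Acinar markers were highest in KPF library 4504s (20631 CPM summed) and KPYYF library 4449 (5933 CPM), and immune markers in KPF library 4601 (1575 CPM, against 100 to 243 CPM in all others). In bulk RNA, fewer cells of a type and less RNA per cell cannot be told apart.

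Of the 8 members, 7 had at least 100 counts over the 9 libraries and were tested among 14105 genes. In edgeR's quasi-likelihood test, 6 of these 7 were lower in KPYYF cells, where 53.3% of all genes tested were lower. Lower with an adjusted p under 0.05 were 2, Gata5 and Zfpm1, against 0.794% of all genes. By the looser rule of an unadjusted p under 0.05 and a change over 2-fold, 5 were lower, against 9.20% of all genes, and no KPYYF library reached the lowest KPF library for 4, against 5.18% of all genes (higher without overlap were 0 members and 3.92% of all genes). The median log2 fold change was -2.25 for the 7 members and -0.07 for all genes tested. Since genes with few counts were left out, these figures speak of the members that passed the filter.

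**Figure D1:**
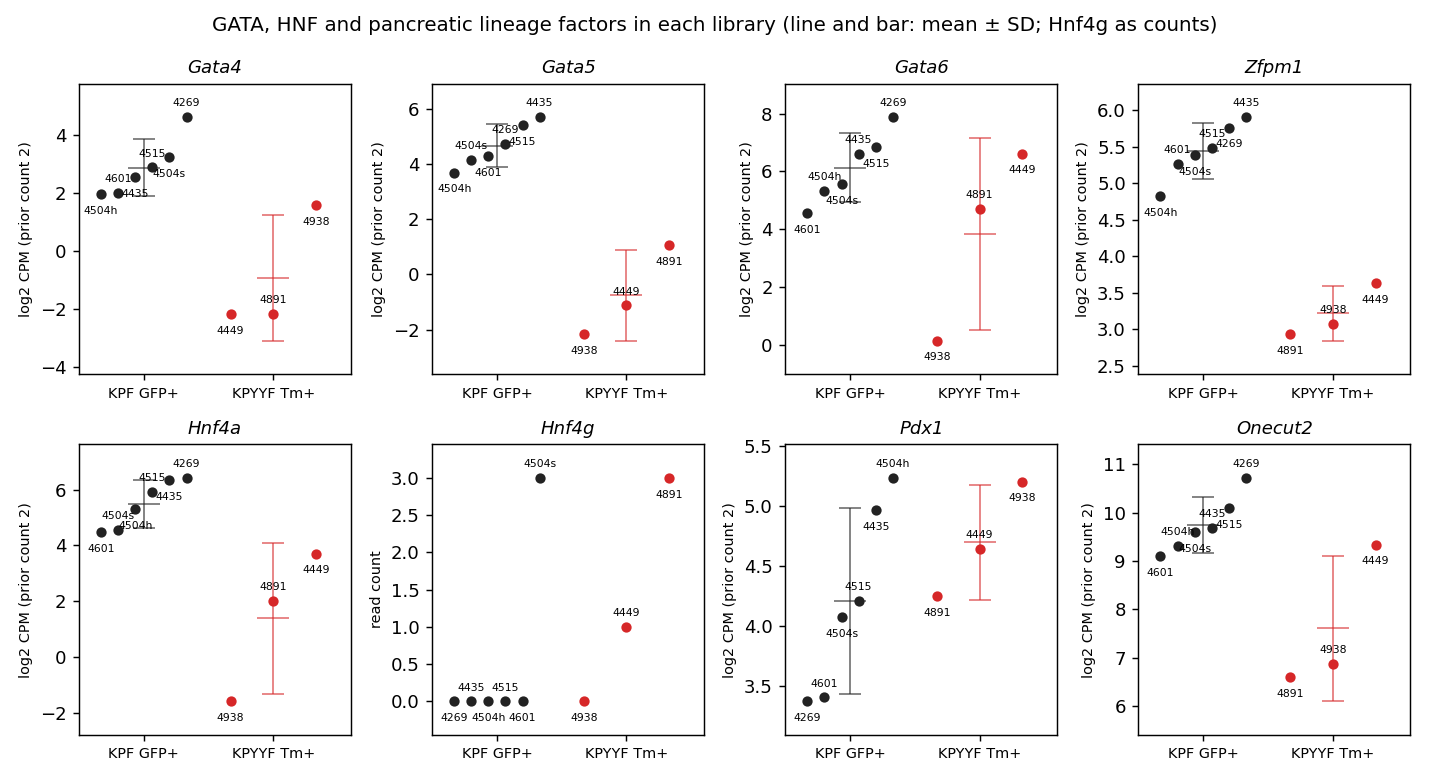
Level of each of the 8 factors in every library, as log2 CPM with a prior count of 2 (Hnf4g as read counts), with black points for the 6 KPF GFP+ libraries, red points for the 3 KPYYF Tm+ libraries and the group mean ± SD as line and bar. The groups stand apart for Gata4, Gata5, Zfpm1 and Hnf4a and overlap for Gata6, Pdx1 and Onecut2, and Hnf4g never has more than 3 reads.

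Gata5 (ENSMUSG00000015627, chromosome 2 from 180325133 to 180334699, minus strand) had the largest fitted change of the members. It was at 26.2, 51.5, 12.7, 17.5, 42.4 and 19.2 CPM in KPF libraries 4269, 4435, 4504h, 4504s, 4515 and 4601, and at 0.237, 1.86 and 0 CPM in KPYYF libraries 4449, 4891 and 4938, which are 2, 17 and 0 reads. The KPYYF libraries were all far below the lowest KPF library. Its mean fell from 28.3 ± 15.4 CPM (SD, n = 6) to 0.699 ± 1.01 CPM (SD, n = 3). The log2 fold change was -5.30 (SE 1.07, 95% interval -7.62 to -2.99, edgeR quasi-likelihood test, adjusted p = 0.0357), and an exact permutation test on log2 CPM, two-sided, gave p = 0.0119, the smallest that 84 splits allow. Leaving out KPF library 4269, 4435, 4504s or 4515, or KPYYF library 4449 or 4938, brought the adjusted p of this test to 0.0607 to 0.0780, with log2 fold changes of -5.37 to -4.72, while it was 0.0333 to 0.0453 without each of the other 3 libraries. The change was -5.23 (adjusted p = 0.172 in edgeR) among the 3 KPF and 3 KPYYF libraries with more than 1000 reads of Xist. Xist is made from the inactive X. The KPF libraries of that set were 4435, 4504h and 4504s. Since 4504h and 4504s share a mouse number, the set held fewer KPF mice than KPF libraries. The antisense gene Gata5os had at most 14 reads in a library.

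Gata4 (ENSMUSG00000021944, chromosome 14 from 63198922 to 63271692, minus strand) was the least counted of the tested members. It was at 24.03, 5.53, 3.68, 9.23, 7.08 and 3.79 CPM in the 6 KPF libraries, in the order given for Gata5, and at 0, 0 and 2.74 CPM in the KPYYF libraries. KPF library 4269 alone held 247 of its 533 reads, and the only KPYYF library with any reads, 4938 with 25, came close to the lowest KPF libraries. The groups did not overlap. The log2 fold change was -3.26 (SE 1.51, edgeR quasi-likelihood test, p = 0.04999 before and 0.310 after adjustment), with an exact permutation p of 0.0119. Without library 4938, both remaining KPYYF libraries were at 0, which allows up to 0.356 and 0.328 CPM, and without KPF library 4269 the log2 fold change was -2.66 (edgeR, adjusted p = 0.453).

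Gata6 (ENSMUSG00000005836, chromosome 18 from 11052064 to 11085635, plus strand) did not separate the groups. It was at 235, 97.8, 39.7, 47.2, 115 and 23.3 CPM in the KPF libraries and at 97.7, 25.8 and 0.877 CPM in KPYYF libraries 4449, 4891 and 4938. The KPYYF libraries ran from the level of the third highest KPF library to 8 reads in all, a range of 111-fold, where the KPF libraries spanned 10.1-fold. The log2 fold change was -1.16 (SE 1.12, 95% interval -3.68 to 1.35, edgeR, adjusted p = 0.680), an interval that holds both a large decrease and an increase, and the exact permutation p was 0.143. Of the GATA factors, the order of the KPYYF libraries was a different one each time: 4938 was highest for Gata4 and lowest for Gata5 and Gata6, 4891 was highest for Gata5, and 4449 was highest for Gata6 with no read of Gata4. The gene 1010001N08Rik, on the opposite strand over Gata6, was at 1.33 to 17.7 CPM in KPF and 0 to 4.27 CPM in KPYYF libraries, and whether the counting used strand is not given in the sources used here.

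Zfpm1 (ENSMUSG00000049577, chromosome 8 from 122282141 to 122337251, plus strand), which encodes the zinc finger cofactor FOG1, varied least among the libraries of a group. It was at 54.0, 59.6, 28.0, 41.5, 44.6 and 38.2 CPM in the KPF libraries and at 12.2, 7.44 and 8.22 CPM in the KPYYF libraries. The ranges were narrow, 2.13-fold in KPF and 1.64-fold in KPYYF, and did not overlap. Its mean fell from 44.3 ± 11.3 CPM (SD, n = 6) to 9.30 ± 2.57 CPM (SD, n = 3), a log2 fold change of -2.25 (SE 0.41, 95% interval -3.14 to -1.37, edgeR, adjusted p = 0.0249, exact permutation p = 0.0119). The adjusted p in edgeR was 0.0560 to 0.0893 without KPF library 4435 or 4504s or KPYYF library 4891 or 4938, with log2 fold changes of -2.25 to -2.11, and at most 0.04997, just under the threshold, without each of the other 5. In the 6 libraries with more than 1000 Xist reads the log2 fold change was -2.20 (edgeR, adjusted p = 0.136).

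Hnf4a (ENSMUSG00000017950, chromosome 2 from 163506808 to 163572910, plus strand), the nuclear receptor of endodermal epithelia, was at 85.2, 79.9, 38.8, 23.0, 60.2 and 21.9 CPM in the KPF libraries. It was at 12.8, 3.83 and 0.110 CPM in KPYYF libraries 4449, 4891 and 4938, the last of these a single read. All 3 lay under the lowest KPF value, but they differed among themselves by 117-fold. The means were 51.5 ± 27.8 CPM (SD, n = 6) and 5.59 ± 6.54 CPM (SD, n = 3), with a log2 fold change of -3.21 (SE 1.02, 95% interval -5.45 to -0.96, edgeR, p = 0.00936 before and 0.156 after adjustment) and an exact permutation p of 0.0119. With the DESeq2 Wald test the log2 fold change was -3.19 and the adjusted p 0.00284, and leaving out any single library in edgeR gave -4.70 to -2.63 with adjusted p values of 0.0686 to 0.327. Its antisense gene Hnf4aos had at most 12 reads in a library. Hnf4g (ENSMUSG00000017688, chromosome 3 from 3508030 to 3658052, plus strand), the close relative of Hnf4a, had 7 reads in all, 3 in KPF library 4504s, 1 in KPYYF library 4449 and 3 in KPYYF library 4891, too few to test.

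Onecut2 (ENSMUSG00000045991, chromosome 18 from 64340020 to 64400987, plus strand), a relative of HNF6, was at 1682, 819, 632, 775, 1086 and 546 CPM in the KPF libraries. In KPYYF cells it was at 647 CPM in library 4449 but at 97.4 and 117 CPM in libraries 4891 and 4938. Library 4449 thus lay within the KPF range and the other two well below it. The log2 fold change was -1.68 (SE 0.63, 95% interval -3.07 to -0.30, edgeR, p = 0.0213 before and 0.215 after adjustment, exact permutation p = 0.0357). The exact permutation p was 0.0536 without KPF library 4269, 4435, 4504s or 4515 and 0.107 without KPYYF library 4891 or 4938. Without library 4449 it was -3.10 with an adjusted p of 0.0147 in edgeR, and over all 9 libraries DESeq2 and limma-voom gave -1.67 and -2.43 with adjusted p values of 0.0312 and 0.0275.

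Pdx1 (ENSMUSG00000029644, chromosome 5 from 147269959 to 147275848, plus strand), the founding factor of the pancreas, was the one tested member whose fitted change was above 0. It was at 10.1, 31.0, 37.4, 16.6, 18.3 and 10.3 CPM in the KPF libraries and at 24.7, 18.8 and 36.6 CPM in the KPYYF libraries. All 3 KPYYF values lay within the KPF range. The log2 fold change was 0.37 (SE 0.50, 95% interval -0.71 to 1.45, edgeR, adjusted p = 0.784, exact permutation p = 0.357), so a decrease of more than 0.71 on the log2 scale lay outside the interval. Among the 6 libraries with more than 1000 Xist reads it was -0.07, since the KPF libraries with few Xist reads, 4269, 4515 and 4601, were at 10.1, 18.3 and 10.3 CPM. Both strains carry Pdx-Flp, whose driver is the Pdx1 promoter, and sorted cells of both had to have expressed Flp. Plut, antisense to Pdx1, was at 2.53 to 39.1 CPM in KPF libraries and had 5.81 to 17.7 CPM in the KPYYF ones.

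**Figure D2:**
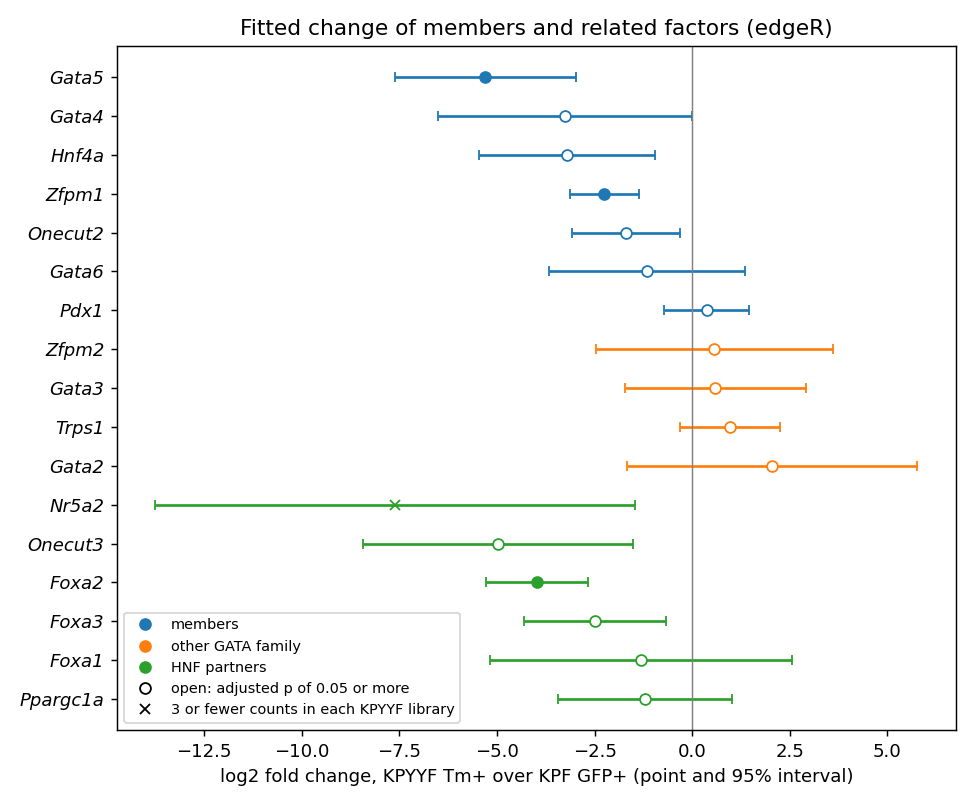
Log2 fold change (KPYYF Tm+ over KPF GFP+, edgeR) with its 95% interval for the 7 tested members, 4 other genes of the GATA and FOG families and 6 partners of the HNF factors. Filled points, Gata5, Zfpm1 and Foxa2, had an adjusted p under 0.05, open points did not, and the cross (Nr5a2) marks a gene with 3 or fewer reads in each KPYYF library, whose fitted value depends on the prior.

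The members did not move as a block from library to library. KPF library 4269 had the highest value of all 9 libraries for 4 of the 7 tested members (Gata4, Gata6, Hnf4a and Onecut2) and the lowest for Pdx1. Among the KPYYF libraries, 4449 lay within the KPF range for 3 members (Gata6, Pdx1 and Onecut2), 4891 for 2 (Gata6 and Pdx1) and 4938 for 1 (Pdx1). The log2 ratio of Gata6 to Hnf4a was 0.03 to 1.46 in the KPF libraries and 1.73 to 2.91 in the KPYYF libraries, so that Gata6 stood higher against Hnf4a in every KPYYF library, though in 4938 the ratio came from 8 reads and 1 read. The log2 ratio of Hnf4a to Pdx1 was 0.05 to 3.05 in KPF and -6.80 to -0.93 in KPYYF libraries, and that of Zfpm1 to Onecut2 was -4.96 to -3.77 and -5.70 to -3.67, overlapping. These ratios were picked from 21 pairs after their values were seen and were not tested.

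The epithelial markers moved with the members, so the levels are also given per 1000 CPM of their sum. That scale was chosen after the values were seen and was not tested. In Tm+Yap- cells the paper reports more epithelial to mesenchymal transition markers and less expression of epithelial differentiation and cell junction genes. The divisor thus itself differed between the groups, and the scale does not measure the share of tumor cells. On this scale, Zfpm1 was at 4.94 to 11.8 in KPF libraries and at 7.83, 13.5 and 12.5 in KPYYF libraries 4449, 4891 and 4938. It was no longer below the KPF range, and was above it in 2 of the 3 KPYYF libraries. Hnf4a was at 4.11 to 16.2 in KPF libraries and at 8.21, 6.93 and 0.166 in KPYYF libraries, below the KPF range in 4938 alone. Gata5 was at 3.14 to 10.2 and at 0.152, 3.36 and 0, and Gata4 at 0.784 to 4.56 and at 0, 0 and 4.16, each below the KPF range in 2 of the 3 KPYYF libraries. Pdx1 was at 1.92 to 11.7 in KPF and at 15.8, 34.0 and 55.6 in KPYYF libraries, all above the KPF range. Onecut2 (120.2 to 320 in KPF, 176 to 414 in KPYYF libraries) was above the KPF range in 1 KPYYF library and within it in the others. Gata6 (5.91 to 44.6 and 1.33 to 62.6) was above the KPF range in 2 KPYYF libraries and below it in 1. Of the 7 members, none was below the KPF range in all KPYYF libraries on this scale, where 4 were on the CPM scale. The part of the epithelial markers in the members' changes was not tested.

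Fibroblast markers, which could mark other cells in the sort, summed to 405 to 5471 CPM in KPF and 1233 to 3313 CPM in KPYYF libraries. By gene, 6 of 8 had fitted changes above 0 (median 0.68) and 0 passed the adjustment in edgeR, but Pdgfra (2.90) and Thy1 (1.92) were higher by the looser rule, and Thy1, at 65.2 to 267 CPM in KPYYF against at most 57.7 CPM in KPF libraries, did not overlap. Islet markers, relevant because islet cells express Pdx1, were at 2.45 to 74.1 and 2.63 to 20.4 CPM, with Iapp at 0 in all 3 KPYYF libraries. Of the 7, 6 had fitted changes below 0 (median -2.75), and Iapp, Ins1 (at most 6.13 CPM in KPF, 0.119 CPM in KPYYF libraries) and Gcg (at most 4.18 and 0.110 CPM) were lower by the looser rule. These marker genes were named after their values were seen, and their part in the members' changes was not tested. Acinar markers ran from 66.6 to 20631 and from 74.0 to 5933 CPM, and endothelial markers from 10.8 to 66.4 and from 10.4 to 14.8 CPM. Erythroid and megakaryocyte markers, of cells that use Zfpm1 with Gata1, ran from 14.8 to 415 and from 47.5 to 160 CPM, with Gp1ba at 0 in all 9 libraries, Klf1 and Epor at 0 in the KPYYF libraries and no read of Gata1 anywhere. KPF libraries 4504s and 4601 held the most acinar and immune marker RNA. Without them, the log2 fold changes in edgeR were -5.51 for Gata5 (adjusted p = 0.0743), -2.30 for Zfpm1 (0.0646) and -3.55 for Hnf4a (0.174). None of the 7 members passed the adjustment, while 4 met the looser rule, against 5 over all 9 libraries. Of all 13416 genes tested without them, 56 were lower and 11 higher after adjustment, against 112 and 43 of 14105 over all 9 libraries. By the looser rule 990 were lower and 614 higher, against 1298 and 592.

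The other genes of the GATA and FOG families did not share the direction of Gata5 and Zfpm1. Gata2 (log2 fold change 2.05), Trps1, which encodes a GATA-type repressor (0.97), Gata3 (0.59) and Zfpm2, encoding FOG2 (0.57) had fitted changes above 0, with adjusted p values of 0.460 to 0.896 in edgeR. Gata2 was at 0 to 8.02 CPM in the KPF libraries and at 2.74 to 10.8 CPM in the KPYYF ones, and Gata3 at 1.74 to 9.11 and 0.109 to 16.4 CPM. The highest KPF value of Gata2 was that of library 4601, and every KPYYF library lay above all the other KPF libraries. Of these 4 genes, 0 were called in either direction, also at an unadjusted p under 0.05 with a change over 2-fold, and in DESeq2 and limma-voom 0 passed the adjustment.

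Of 8 HNF partner genes, 6 were tested and all 6 had fitted changes below 0. These are not all of the partner genes, and the median of the 6 was -3.23. Foxa2, a forkhead factor that opens chromatin in endoderm, was the one that passed the adjustment, and the study had named it as lower from these libraries. It fell from 87.9 ± 54.8 CPM (SD, n = 6) to 5.58 ± 1.37 CPM (SD, n = 3), a log2 fold change of -3.97 (SE 0.60, edgeR, adjusted p = 0.0141), and no KPYYF library (4.27 to 7.01 CPM) came near the lowest KPF library (32.7 CPM). Without KPYYF library 4891 or 4938, no HNF partner passed. By the looser rule 4 were lower, Foxa2, Foxa3 (-2.49, adjusted p = 0.167 in edgeR), Onecut3 (-4.97, adjusted p = 0.152) and Nr5a2, an acinar and ductal nuclear receptor at up to 50.7 CPM in KPF library 4504s and at most 0.119 CPM in KPYYF libraries. Foxa1 (-1.31) and the coactivator gene Ppargc1a (-1.22) had adjusted p values of 0.784 and 0.620 in edgeR. Onecut1, which encodes HNF6 itself, and Nr0b2 had 31 and 66 reads and were not tested.

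**Figure D3:**
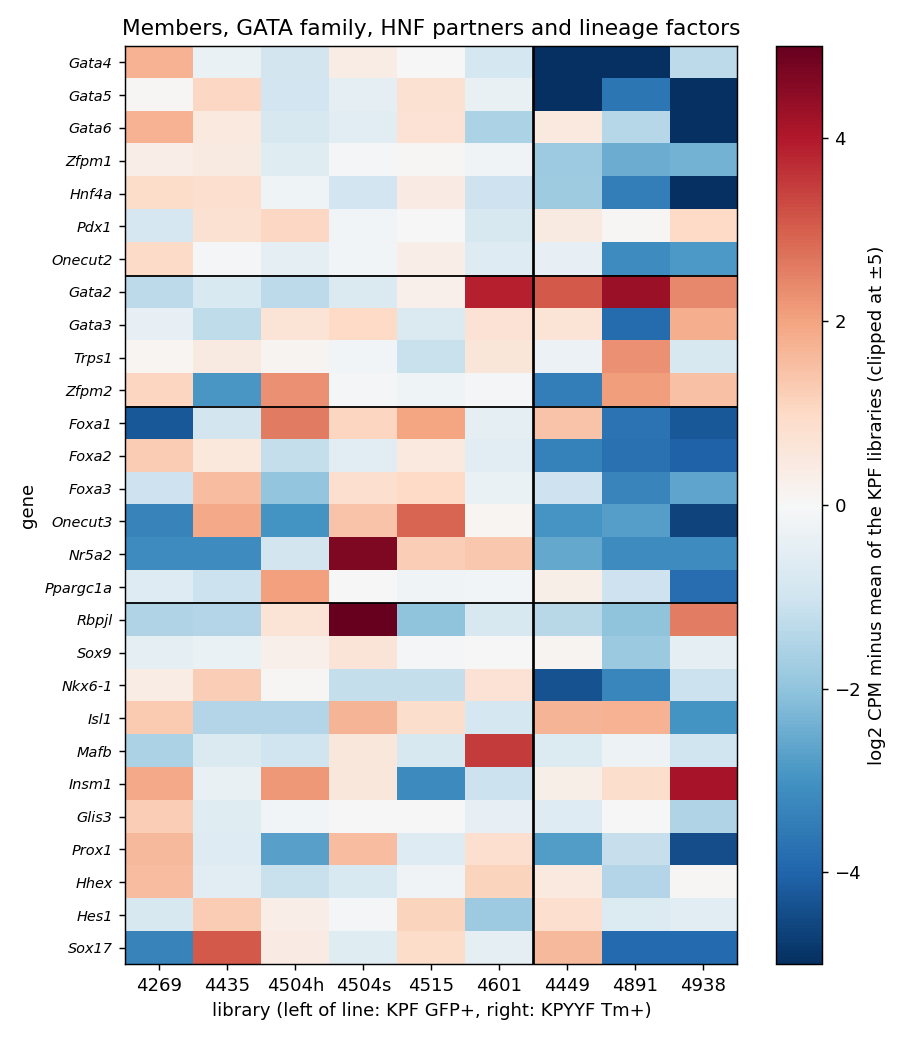
Log2 CPM of the 7 tested members, other GATA and FOG genes, HNF partners and other pancreatic lineage factors in each library, minus the mean of the KPF libraries, with red above and blue below that mean and values clipped at 5. KPF libraries stand left and KPYYF libraries right of the vertical line. Gata5, Zfpm1, Hnf4a and Foxa2 are blue in all 3 KPYYF libraries, while Pdx1 and Gata2 are white to red there and Onecut2 is deep blue in only 2.

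Of 24 other pancreatic lineage factors, 11 were tested, 9 with fitted changes below 0 and 2 above, with a median of -0.75 and none with an adjusted p under 0.05 in edgeR, DESeq2 or limma-voom. The largest fitted changes were those of Prox1, a homeodomain factor of duct and endocrine cells (-3.12, adjusted p = 0.326), and Nkx6-1, a beta cell factor (-2.63, adjusted p = 0.230, edgeR). Nkx6-1 was the only one to meet the looser rule. Sox9, the factor of pancreatic progenitors and ducts that works with Pdx1, was at 296 ± 85.7 CPM (SD, n = 6) in KPF and 201 ± 120.3 CPM (SD, n = 3) in KPYYF cells, with a log2 fold change of -0.56 (SE 0.39, edgeR, adjusted p = 0.532), and was named after its values were seen.

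HNF4A is known to act on genes of lipid transport, coagulation and gut brush border, and a list of 22 such genes was read beside it. Of the 17 tested, 16 had fitted changes below 0, with a median of -2.60, 8 met the looser rule and 0 passed the adjustment in edgeR, against 7 in DESeq2 and 1 in limma-voom. The 8 ductal epithelial markers had a median of -2.64, with 8 of 8 below 0 and 7 lower by the looser rule. Serpina1b, the gene of a plasma protease inhibitor with near-identical copies between which reads may be split, was at 0 to 50.9 CPM in KPF libraries and had no read in KPYYF libraries, a mean at least 29.3-fold lower against 3 reads per library. That bound rests on KPF library 4269, at 50.9 CPM, and is 5.01-fold over the other 5 libraries, at up to 4.65 CPM. Pklr, encoding liver pyruvate kinase, was at 1.53 to 24.7 CPM in KPF libraries and at most 0.110 CPM, a single read, in KPYYF libraries. Vil1, the brush border protein villin (-3.70, edgeR, adjusted p = 0.0514), and the claudin gene Cldn2 (-2.60, adjusted p = 0.0933), named after their values were seen, did not overlap between the groups. Apoa4 was the 1 gene with a fitted change above 0 (1.88, edgeR, adjusted p = 0.744), at 0 to 14.98 CPM in KPYYF libraries. The list median was -5.19 once KPYYF library 4891 was left out.

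Genes known for classical PDAC had the same direction. Of 20, 15 were tested, all 15 had fitted changes below 0, with a median of -2.59, 9 met the looser rule and 1 passed the adjustment in edgeR, Ctse, which encodes the gastric protease cathepsin E (log2 fold change -4.23, SE 0.80, adjusted p = 0.0357). Beside these lists, 0.794% of all genes were lower with an adjusted p under 0.05 and 9.20% by the looser rule. No classical gene passed in edgeR without KPF library 4269, 4435 or 4504s, without KPYYF library 4891 or 4938, with no filter on low counts or among the libraries with over 1000 Xist reads, nor in limma-voom. Ctse fell from 353 ± 241 CPM (SD, n = 6) to 18.8 ± 12.7 CPM (SD, n = 3). Lgals4 and Cdh17 stand on both this list and that of HNF4A. Of 19 genes known for basal-like PDAC, 13 were tested, 8 below and 5 above 0, with a median of -0.84. In edgeR 0 passed the adjustment, against 3 in DESeq2, while 4 lower and 2 higher met the looser rule. Among the lower ones, Krt7 (-2.63) is also one of the ductal epithelial markers, whose median was -2.64. The basal-like median was -2.44 without KPYYF library 4449, -2.01 in limma-voom and -0.17 among the libraries with over 1000 Xist reads, where the classical median was -3.24, -3.06 and -2.31, and the difference between the lists was not tested. The 2 higher genes, Cst6 and Sprr1b, were at most at 0.683 and 0.204 CPM in KPF libraries and at 0 to 13.8 and 0 to 11.4 CPM in KPYYF libraries. All KPYYF reads of Sprr1b came from a single library. For the higher calls, 0.305% of all genes were higher with an adjusted p under 0.05 and 4.20% by the looser rule.

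**Figure D4:**
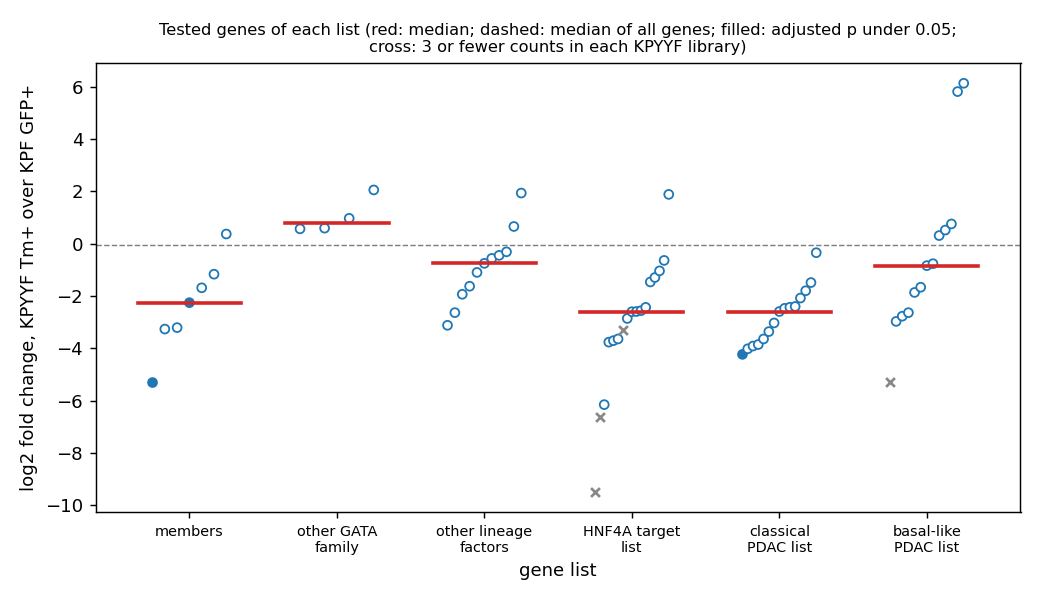
Log2 fold changes (edgeR, KPYYF Tm+ over KPF GFP+) of the tested genes of each list drawn, with the list median in red and the median of all 14105 genes (-0.07) as a dashed line. The HNF partners and the cell type markers are not drawn. Filled points had an adjusted p under 0.05 and crosses mark genes with 3 or fewer reads in each KPYYF library. The medians of the lists drawn run from -2.60 for the HNF4A list to 0.78 for the other GATA and FOG genes, with the members at -2.25.

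For each tested member, the genes nearest in pattern were searched among 10461 genes with a mean of at least 5 CPM, by the root mean square difference of centred log2 CPM over the 9 libraries. Zfpm1 lay nearest to Vamp8, a SNARE protein gene (0.31), and C9orf72 (0.32), and Pdx1 to Tmem120a (0.28) and the adaptor gene Crk (0.29). Hnf4a lay nearest to Vsig1, a junction protein gene of gastric epithelium (0.48), and Ephx2, encoding an epoxide hydrolase (0.53), and Onecut2 to Igfbp7 (0.33) and Anxa4 (0.36). Gata6 lay nearest to Nostrin (0.62) and Rhobtb1 (0.62), Gata4 to the kinase gene Cdk18 (0.63) and Cdc42ep1 (0.71), and Gata5 to the ferric reductase gene Cybrd1 (0.72) and Fcho1 (0.80). No 2 members shared a nearest gene. The distances are descriptions over 9 libraries and are larger for members that varied more, from a spread of 0.66 for Pdx1 to 2.73 for Gata5.

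**Figure D5:**
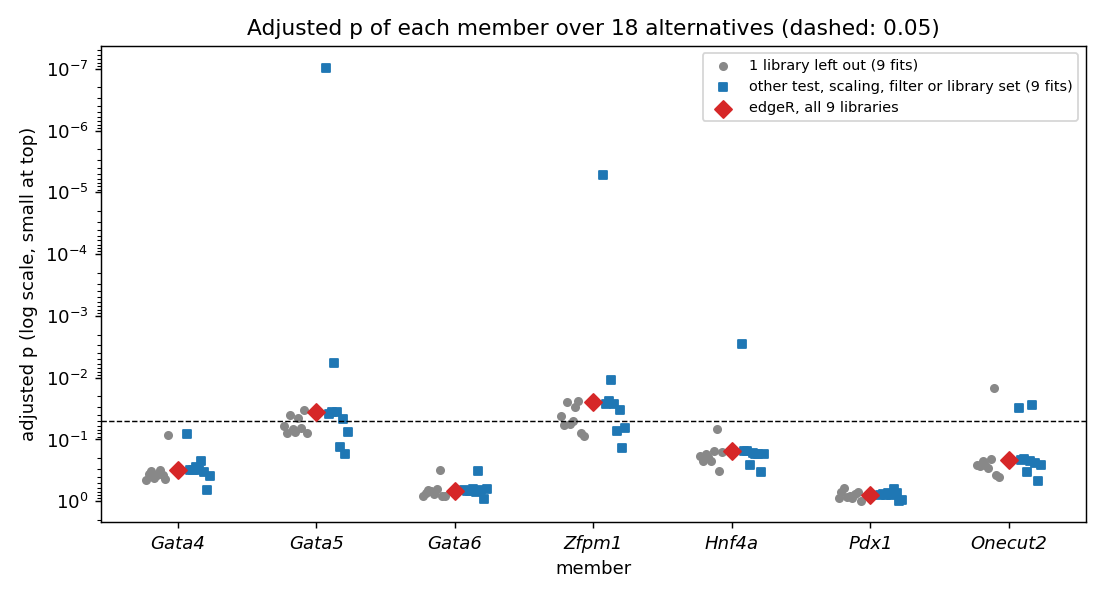
Adjusted p of each tested member, on a log scale with small values at the top, in edgeR with all 9 libraries (red diamonds), in 9 fits that each left out 1 library (grey circles) and in 9 fits with another test, scaling, filter or set of libraries (blue squares), with 0.05 dashed. Gata5 and Zfpm1 sit near the line and cross it, passing in 9 and 11 of the 18 alternatives, Onecut2 passes in 3, Hnf4a in 1, and Gata4, Gata6 and Pdx1 in none.

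The calls on the members depended on single libraries. Over 18 alternatives, Gata5 had an adjusted p under 0.05 in 9 (9.54e-08 to 0.172) and Zfpm1 in 11 (5.31e-06 to 0.136), the smallest values being those of DESeq2. Hnf4a passed in 1, Onecut2 in 3, and Gata4, Gata6 and Pdx1 in 0. The fitted change stayed below 0 in all 18 for Gata4, Gata5, Gata6, Zfpm1, Hnf4a and Onecut2.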

How the data were processed

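FACS-sorted PDAC cells were profiled by 3′ end RNA-seq. The authors deposited raw read counts per Ensembl gene, 1 file per library, and per the submitters' processing notes STAR, HTSeq and mm10 were used. The annotation and the strand setting are not given in the sources used here. The study's methods describe an array for expression, whereas the values here are whole-number counts. Groups followed the labels. Of 47643 genes, 47224 were matched to symbols of GENCODE M21 (GRCm38), 22925 had a count and 14105 with a sum of at least 100 counts were tested with edgeR 4.0.16 (TMM, quasi-likelihood F test, R 4.3.3) and Benjamini-Hochberg adjustment, with a common biological coefficient of variation of 0.825. Between 37.3% and 42.0% of reads were on genes, and reads assigned to no gene were left out. Single members were also tested by exact permutation of log2 CPM (prior count 2), two-sided.

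Alternatives were DESeq2 1.42.0, limma-voom (limma 3.58.1) with sample quality weights, RLE and upper quartile factors, no filter, filterByExpr, summing 4504h and 4504s, libraries with over 1000 Xist counts, and each library left out. Leaving out 4504s and 4601, the epithelial scale and the pair ratios were added after values were seen. Named were the members, all tested genes of the GATA and HNF partner lists, in other lists the genes past the adjusted threshold or else the 2 with the largest change, the 2 genes nearest to each member, Yap1, Xist and genes overlapping a member. The members and lists were chosen with earlier results of these data known. Certain items, an allele and partner genes among them, are not reported here. The steps were tested on simulated data. Figures were drawn with matplotlib 3.10.9 (Python 3.11.15, pandas 2.3.3).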

Additional observations from a re-analysis of the deposited data

Results flagged for a closer look

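Gata4 in KPF library 4269, at 24.03 CPM, stood apart from the other 5 KPF libraries, at 3.68 to 9.23 CPM. Its gap to the nearest library was 0.727 of the range of the group, above Dixon's 95% critical value for 6 libraries. On the log2 scale the ratio was 0.516, under that value. The check was made for 7 members, and chance alone marks about 1 in 20 groups.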

How the results depend on the processing

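No paired analysis was possible because the groups share no mouse numbers. With DESeq2, 269 genes were higher and 928 lower, with 4 members, 4 HNF partners, 7 HNF4A list genes, 8 classical and 3 basal-like genes called. With no filter, 88 were higher and 219 lower (1204 higher by the looser rule), with a median of -1.38 for pancreatic factors, and 2 HNF4A list, 0 classical and 1 basal-like genes called. filterByExpr called 1 HNF4A list gene. With limma-voom, 44 were lower, with 1 member, 0 HNF partners, 1 HNF4A list, 0 classical and 1 basal-like gene called (basal-like median -2.01). That member was Onecut2, while Gata5 and Zfpm1 had adjusted p values of 0.131 and 0.0739 in limma-voom. With 4504h and 4504s summed, 25 were higher. Among libraries with over 1000 Xist counts, 6 were higher and 31 lower, 0 members were called (3 by the looser rule) and 0 classical genes, and Pdx1 changed sign, to -0.0705 in edgeR and -0.0489 in mean log2 CPM. Without 4504s and 4601, 11 were higher and 56 lower, with 0 members and 0 classical genes called. Leaving out 1 library gave 6 to 75 higher and 13 to 198 lower genes, 0 to 2 members (3 to 5 by the looser rule), 0 to 1 basal-like, 0 to 2 classical, 0 to 1 HNF4A list and 0 to 1 HNF partner genes, and medians of -2.44 to -0.60, -5.19 to -2.31 and -4.68 to -2.39 for the basal-like and HNF4A lists and the 6 HNF partners reported. The causes were not tested. Gata4, Gata5 and Hnf4a had 0 to 25, 0 to 17 and 1 or more reads in the KPYYF libraries.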
